A study of Caenorhabditis elegans with 6 samples.

Results

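The 10 genes described here encode the core of the worm insulin and insulin-like growth factor signalling pathway: daf-2, ist-1, age-1, daf-18, pdk-1, akt-1, akt-2, sgk-1, daf-16 and hcf-1. They were taken by name from a deposited table that gives counts for 22407 genes, and all 10 were found in it and passed the filter on low counts. The table covers 6 RNA-seq libraries from pools of whole Caenorhabditis elegans of strain AM140, genotype rmIs132 [unc-54p::Q35::YFP], in which the unc-54 promoter drives 35 glutamines fused to yellow fluorescent protein in body wall muscle. All 6 libraries share this transgene. In the 3 control libraries (EV) the food was HT115 bacteria carrying an empty vector. In the 3 others, called RNAi from here on, it was HT115 bacteria making RNA against the gtr-1 3'UTR; the series title presents the gene as a neuronal G protein-coupled receptor. Worms were kept at 20 °C and both generations had the same food. Bleaching of the parents took place at adult day 1, and generation 2 was collected at adult day 6, its own offspring having been washed off each day.

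In this pathway, insulin-like peptides bind the receptor DAF-2, which recruits the phosphoinositide 3-kinase AGE-1. AGE-1 makes the membrane lipid PIP3, the phosphatase DAF-18 removes it, and PIP3 brings PDK-1 and the kinases AKT-1 and AKT-2 to the membrane. Phosphorylated DAF-16, a FOXO transcription factor, is held in the cytoplasm; when signalling is low it enters the nucleus and controls genes of stress resistance, metabolism and lifespan. Much of this control is on protein phosphorylation and location, which transcript counts do not measure.

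The transcripts of the pathway differed little between the groups. Relative to EV, 8 of the 10 members had fitted changes between -2.49% and 6.61% in the libraries labelled gtr-1 RNAi, and 0 of 10 passed the test fixed for the comparison, edgeR's quasi-likelihood test with Benjamini-Hochberg adjustment over all 14683 genes tested and a threshold of 0.05. The same test called 0% of all genes in either direction, so that count says nothing particular about these 10. The member with the widest fitted change was daf-18, at 1.16 times its EV level, and it was the single member that DESeq2 called. Over all genes DESeq2 called 6.08% higher and 6.99% lower, so 1 call among 10 members is near that share. The next positive change was that of daf-16, at 1.07 times and not called by DESeq2 or edgeR. These sizes are those of the edgeR fit.

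Several facts of the whole series bear on these values. Total counts ran from 33254426 to 41902475 per library, and members had between 273 and 41453 counts in a library. The target gene gtr-1 had 16, 25 and 20 counts in EV replicates 1, 2 and 3 and 20, 24 and 19 in RNAi replicates 1, 2 and 3. A lower transcript was thus not seen in the libraries labelled gtr-1 RNAi. These counts are few, and the 95% interval of the edgeR change ran from -36.7% to 55.7%, so a moderate loss could go unseen. On the first principal component, which held 72.7% of the variance of log2 CPM, RNAi replicate 3 (-6.62) lay nearer to EV replicate 1 (-19.2) than to RNAi replicates 1 and 2 (41.8 and 59.9). Values without it are given for daf-18, for ins-34 and ins-7, and for the medians of the lists of DAF-16 targets. Every one of the 14 neuronal, 14 intestinal, 17 germline and embryo, 15 body wall muscle and 15 epidermal marker genes had counts in each library. The summed level of the epidermal markers was 662 to 759 CPM with EV and 477 to 632 CPM with RNAi, without overlap; of the other lists, the germline and embryo markers alone also separated the groups. Single epidermal markers went both ways, with 6 of 15 positive, fold changes from -1.85 to 1.53 on the log2 scale, and 2 called higher and 1 lower by DESeq2. Of the neuronal markers 2 of 14 were positive, and DESeq2 called 1 lower. Its shares over all genes were 6.08% higher and 6.99% lower. Counts come from whole animals, in which fewer cells of a type and less RNA per cell cannot be told apart.

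Levels of the members spanned 130.2-fold per length of exon. On the scale of CPM (counts scaled to a common library size, with TMM factors) per kb of exon, averaged over the 6 libraries, daf-18 stood at the top with 272 ± 27.6 (SD, n = 6 libraries). It was followed by hcf-1 at 113 ± 2.89, akt-1 at 98.1 ± 4.03 and daf-16 at 66.2 ± 2.66. These 4 did not overlap with their neighbours in the order. The daf-18 level lay at percentile 97.5 of all genes tested, against 92.9 for hcf-1, 91.3 for akt-1 and 85.2 for daf-16.

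The middle of the order held age-1 at 26.8 ± 0.901 and daf-2 at 26.2 ± 0.700 CPM per kb, whose ranges overlapped. Below them, akt-2 (11.5 to 12.5 over the 6 libraries), sgk-1 (11.4 ± 1.24) and pdk-1 (11.1 ± 0.308) also overlapped from one to the next. The lowest was ist-1 at 2.09 ± 0.221, with pdk-1 5.33-fold above it. Within both overlapping sets the order depends on the length used: per kb of coding sequence daf-2 (37.5) was above age-1 (29.7), and pdk-1 (14.1) was above sgk-1 (13.4).

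**Figure D1:**
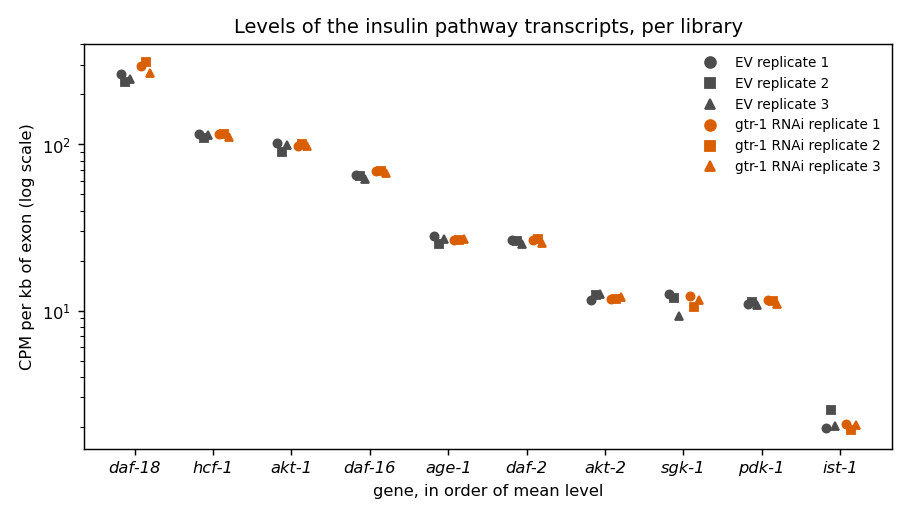
Levels of the 10 transcripts in each library, as TMM-adjusted CPM per kb of exon on a log axis, with genes in order of their mean. Grey symbols are EV libraries and orange symbols RNAi libraries; daf-18 lies at 239 to 312 and ist-1 at 1.90 to 2.52, and within a gene the 6 libraries lie close together.

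At the receptor, daf-2 (WBGene00000898; WBcel235 chromosome III, 2994514 to 3040846, minus strand) encodes the insulin receptor of the worm. Its levels were 222, 217 and 209 CPM in EV replicates 1, 2 and 3 and 219.9, 224 and 211 CPM in RNAi replicates 1, 2 and 3. The ranges overlapped almost wholly. The fitted log2 fold change was 0.02 ± 0.04 SE (edgeR adjusted p = 0.820), and the 95% interval of the change ran from -4.95% to 7.47%. The gene ist-1 (WBGene00002163; chromosome X, 7126648 to 7139666, plus strand) encodes a relative of the insulin receptor substrates. It had 294, 395 and 273 counts under EV and 290, 301 and 332 under RNAi, and EV replicate 2 was the highest library. Its log2 fold change was -0.11 ± 0.13 SE (edgeR adjusted p = 0.596; interval of the change -24.7% to 13.8%), and it turned to 0.02 without EV replicate 2. The intervals of ist-1 and sgk-1 were wider than those of the other 8 members.

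At the membrane lipid, the catalytic subunit gene age-1 (WBGene00000090; chromosome II, 11519328 to 11527054, minus strand) had 28.1, 25.3 and 26.8 CPM per kb of exon in the EV libraries and 26.7, 26.5 and 27.1 in the RNAi libraries. The RNAi values lay inside the EV range (log2 fold change 0.001 ± 0.04 SE, edgeR adjusted p = 0.994; interval -6.78% to 7.40%). Its adaptor subunit gene aap-1 was at 95.4 ± 1.65 CPM with EV and 98.5 ± 2.39 CPM with RNAi (n = 3 each; log2 fold change 0.05 ± 0.04 SE, edgeR adjusted p = 0.416). Per kb of exon, the ratio of age-1 to aap-1 was 0.507 ± 0.0271 under EV and 0.491 ± 0.0137 under RNAi.

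The phosphatase gene daf-18 (WBGene00000913; chromosome IV, 420011 to 425177, minus strand) opposes age-1. It had 33467, 31410 and 28390 counts in EV replicates 1, 2 and 3, or 889, 795 and 828 CPM. In RNAi replicates 1, 2 and 3 it had 34755, 41453 and 36637 counts, or 982, 1039.7 and 897 CPM. The groups did not overlap, but the gap was narrow, since RNAi replicate 3 was 0.914% above EV replicate 1. Mean levels were 838 ± 47.5 and 973 ± 71.7 CPM (n = 3 each). The edgeR log2 fold change was 0.22 ± 0.06 SE (unadjusted p = 0.00967, adjusted p = 0.116), with an interval of 4.93% to 28.6%. DESeq2 gave 0.23 ± 0.07 SE (adjusted p = 0.0240).

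The call of daf-18 depended on which libraries entered the fit. With RNAi replicate 3 omitted, its log2 fold change was 0.27 by edgeR (adjusted p = 0.00626) and 0.29 by DESeq2 (adjusted p = 0.000168). DESeq2 also called it without EV replicate 1 (adjusted p = 0.0228), but not without EV replicate 2 (0.137), EV replicate 3 (0.140), RNAi replicate 1 (0.162) or RNAi replicate 2 (0.165). In the fits without a call, in that order, its log2 fold change was 0.188, 0.224, 0.222 and 0.175. Over the whole table these fits called 310, 176, 99 and 183 genes higher, against 827 with 6 libraries. Without EV replicate 1 and RNAi replicate 3 the counts were 763 and 1555. Germline and embryo markers moved in the same direction. Of these, 15 of 17 had positive fold changes, beside 7269 of the 14683 genes tested. DESeq2 called 4 of 17 higher, beside 6.08% of all genes, and edgeR called 0. The summed level of these markers was 16992 to 17364 CPM with EV and 17445 to 19203 CPM with RNAi. Set against the summed counts of these markers in the same library, daf-18 stood at 51.2, 45.9 and 48.7 counts per 1000 marker counts under EV and at 52.9, 54.1 and 51.4 under RNAi, a log2 difference of 0.12 in place of 0.22, and the groups still did not overlap. This scaling was chosen after the values had been seen. The marker sum was itself higher under RNAi, so the scaling lowers the difference of any transcript. A part of the markers in the result was not tested.

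**Figure D2:**
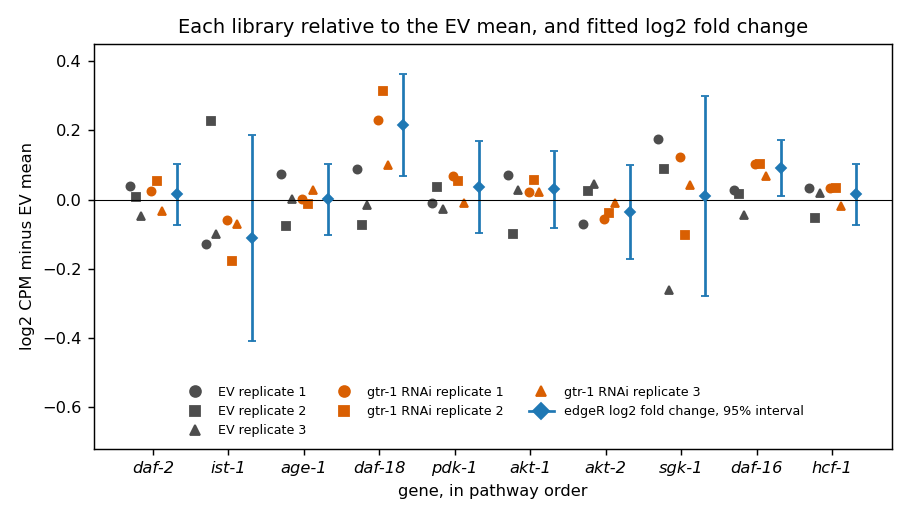
For each member, in pathway order, the log2 CPM of every library minus the EV mean (grey EV, orange RNAi), beside the edgeR log2 fold change with its 95% interval (blue). The interval lies above 0 for daf-18 (0.07 to 0.36) and daf-16 (0.01 to 0.17) and spans 0 for the other 8 members.

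Among the kinases, pdk-1 (WBGene00003965; chromosome X, 1321344 to 1327986, plus strand), which activates the AKT kinases, was at 26.4, 27.3 and 26.1 CPM with EV and 27.9, 27.6 and 26.4 CPM with RNAi. The ranges overlapped (log2 fold change 0.04 ± 0.06 SE, edgeR adjusted p = 0.711; interval -6.51% to 12.4%). The main AKT gene, akt-1 (WBGene00000102; chromosome V, 10248905 to 10252845, plus strand), was at 232, 206 and 225 CPM with EV and 224, 229.6 and 224 CPM with RNAi. Here too the RNAi libraries fell inside the EV range (0.03 ± 0.05 SE, edgeR adjusted p = 0.714; interval -5.49% to 10.3%). Exons of akt-1 share 8 bases with the opposite-strand gene rop-1. Other exon overlaps, also with genes on the opposite strand, were 192 bases of age-1 with B0334.10, 84 bases of daf-16 with the non-coding H36N01.5 and 15 bases of pdk-1 with F21E9.2, and the strand setting of the counting is not known.

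The related gene akt-2 (WBGene00000103; chromosome X, 14147700 to 14152070, plus strand) was at 27.5, 29.4 and 29.8 CPM with EV and 27.8, 28.1 and 28.7 CPM with RNAi (log2 fold change -0.04 ± 0.06 SE, edgeR adjusted p = 0.713; interval -11.2% to 7.09%). Per kb of exon, akt-1 exceeded akt-2 in each library, by 8.02 ± 0.772-fold under EV and 8.38 ± 0.206-fold under RNAi. The balance of the pair was thus measured at 7.32 to 8.85 over the 6 libraries, with overlapping groups.

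The kinase gene sgk-1 (WBGene00004789; chromosome X, 16254842 to 16262122, minus strand) belongs to the same kinase family and is known to act downstream of TOR complex 2. It varied most among the members. Its levels were 20.7, 19.5 and 15.3 CPM with EV and 20.0, 17.1 and 18.9 CPM with RNAi, with EV replicate 3 lowest. The log2 fold change of 0.01 ± 0.12 SE (edgeR adjusted p = 0.963; interval -17.5% to 23.2%) became -0.11 without EV replicate 3 and -0.04 without RNAi replicate 1. Its direction is therefore not determined by these libraries.

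At the nuclear end, daf-16 (WBGene00000912; chromosome I, 10750498 to 10776703, plus strand) was at 241, 239 and 229 CPM in EV replicates 1, 2 and 3 and at 254, 254 and 248 CPM in RNAi replicates 1, 2 and 3. All RNAi libraries lay above all EV libraries, by 2.80% at the closest. The means were 236 ± 6.56 and 252 ± 3.77 CPM (n = 3 each). The log2 fold change was 0.09 ± 0.03 SE by edgeR (unadjusted p = 0.0294, adjusted p = 0.142; interval 0.837% to 12.7%) and 0.10 ± 0.05 SE by DESeq2 (adjusted p = 0.170). It was 0.03 with library size in place of TMM factors. Relative to the summed germline and embryo markers the value was 13.7 ± 0.219 counts per 1000 under EV and 13.7 ± 0.482 under RNAi, a log2 difference of -0.001. Replicates 1, 2 and 3 were at 13.9, 13.8 and 13.5 under EV and at 13.7, 13.2 and 14.2 under RNAi. A part of the markers in the daf-16 change was not tested. The counts are per gene, so the many daf-16 isoforms (11 annotated transcripts) were not separated.

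The gene hcf-1 (WBGene00001827; chromosome IV, 7770770 to 7774275, minus strand) encodes a nuclear protein that binds DAF-16 and limits its access to target promoters. It was at 322, 303 and 319 CPM with EV and 322, 322 and 310.4 CPM with RNAi. The groups overlapped (log2 fold change 0.01 ± 0.04 SE, edgeR adjusted p = 0.824; interval -4.88% to 7.29%). The ratio of hcf-1 to daf-16 per kb of exon was 1.77, 1.67 and 1.84 under EV and 1.67, 1.67 and 1.66 under RNAi. The 3 RNAi ratios sat at the lower end of the EV ratios.

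Counts over the members were read against all genes. At an adjusted p under 0.05, edgeR called 0 of 10 members, where it called 0% of 14683 genes higher and 0% lower. At an unadjusted p under 0.05, 2 of 10 members were higher, daf-18 and daf-16, and 0 were lower, against 12.9% and 15.3% of all genes. DESeq2 called 1 of 10 members higher and 0 lower, against 6.08% and 6.99% of the 13612 genes to which it gave an adjusted p. In CPM, 2 of 10 members were higher with no overlap between the groups and 0 lower, against 16.6% and 19.6%. For each of these rules the count of higher members is within 1 gene of what the share over all genes would give for a list of 10. The count of lower members was 0 under each rule, where the shares over all genes reached 15.3% and 19.6%. No test was made of this.

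The members were steady transcripts. Their median within-group SD was 0.0513 on the log2 CPM scale, against 0.145 over all genes tested, and 8 of the 10 lay below 0.1. The exceptions were sgk-1 (0.182) and ist-1 (0.147), which had 524 to 779 and 273 to 395 counts a library. The median absolute log2 fold change was 0.03 for the members and 0.16 over all genes tested, and the medians of the signed values were 0.02 and -0.003. Some neighbouring lists, described below, were steady to a like degree. Over all 6 libraries the median SD was 0.0535 for the members and 0.178 for all genes tested. It was 0.0448 for the TOR genes, 0.0603 for the PI3-kinase partners, 0.0645 for the Ras branch and 0.445 for the insulin-like ligands. Genes were not matched for level in these comparisons.

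Ratios between members within a library do not depend on how libraries are scaled. Of the 45 pairs, 7 had ratios that did not overlap between the groups, 5 with daf-18 and 2 with daf-16 as the gene that was relatively higher. All 7 thus rest on the 2 genes whose CPM did not overlap. Over all pairs of tested genes with counts in every library, 36.7% did not overlap. The ratio of daf-18 to daf-2 per kb of exon was 9.99, 9.13 and 9.85 in EV replicates 1, 2 and 3 and 11.1, 11.6 and 10.6 in RNAi replicates 1, 2 and 3. The RNAi ratios all lay above the EV ratios, with replicate 3 lowest (mean log2 difference 0.20). The other non-overlapping partners of daf-18 were age-1 (log2 difference 0.21), hcf-1 (0.20), akt-1 (0.18) and pdk-1 (0.18). Against daf-2, daf-16 stood at 2.45, 2.49 and 2.46 under EV and 2.60, 2.56 and 2.64 under RNAi. With 3 libraries a group the exact two-sided permutation test cannot give a p below 0.1, which is the value for each of these 7 pairs, so none of the 45 can pass a threshold of 0.05.

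**Figure D3:**
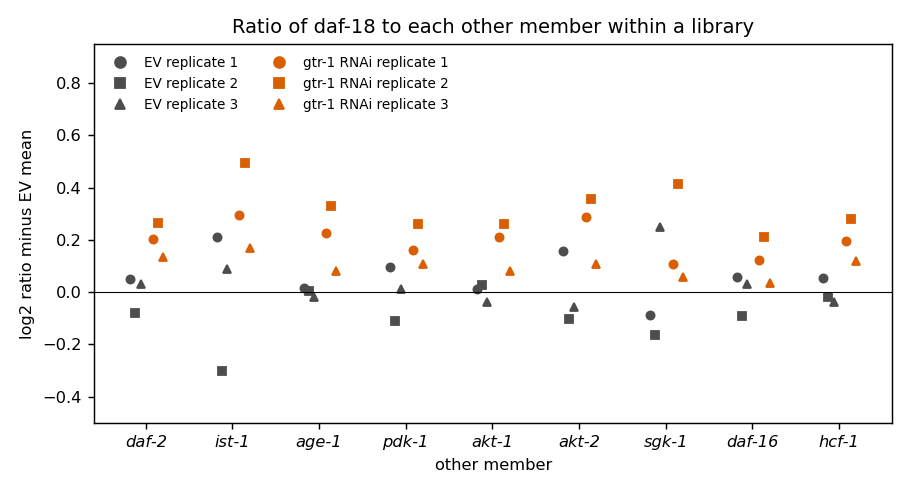
Ratio of daf-18 to each other member within each library, as log2 minus the EV mean (grey EV, orange RNAi). The mean of the RNAi libraries is above that of EV against all 9 partners, by 0.12 for daf-16 up to 0.32 for ist-1, and the groups do not overlap for daf-2, age-1, pdk-1, akt-1 and hcf-1.

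Under 22 other settings of the test, tool, filter or library set, daf-18 stayed between 0.16 and 0.29 on the log2 scale and passed its threshold in 6. The log2 fold change of daf-16 stayed between 0.03 and 0.125 and passed in 0, with a smallest adjusted p of 0.0523 from limma-voom with sample quality weights. Each of the other 8 members had a positive value in some settings and a negative value in others, and passed in 0.

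**Figure D4:**
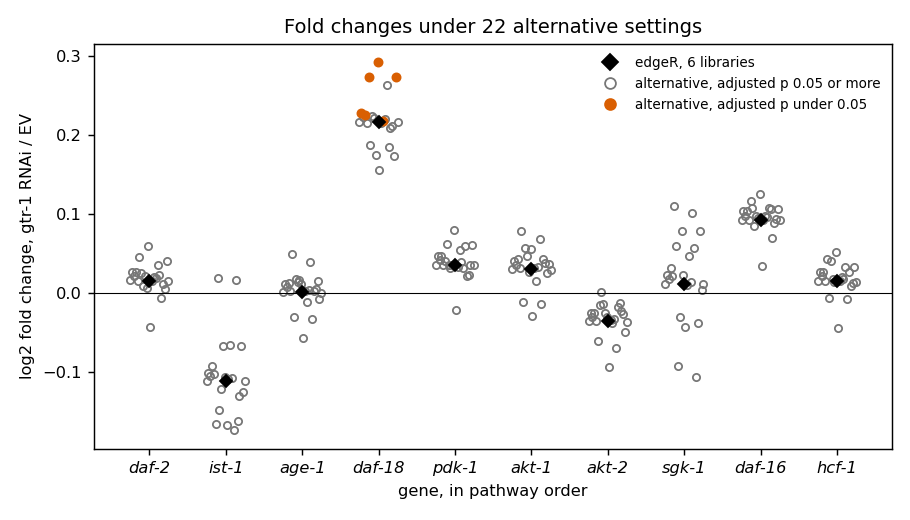
Log2 fold change of each member under 22 alternative settings (circles; filled orange where the adjusted p was under 0.05) beside the edgeR value with 6 libraries (black diamonds). Filled circles occur for daf-18 only, at 0.22 to 0.29, and the circles of all members other than daf-18 and daf-16 lie on both sides of 0.

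Genes around the pathway were examined through 11 lists, which were chosen with earlier results of these data known. Of the 195 distinct genes with counts, 166 were tested. None was called by edgeR. At an unadjusted edgeR p under 0.05, 17 were higher and 43 lower, against 12.9% and 15.3% of all genes. DESeq2 called 6 higher and 20 lower, against 6.08% and 6.99%. The lists nearest the kinases had medians near 0. They were 0.03 for the 13 PI3-kinase partners and phosphatases and 0.03 for the 10 genes of the TOR complexes. The median was 0.02 for the 7 tested genes of a mixed list drawn around AKT-1 and DAF-16. These were eak-7, mrg-1, ftt-2, par-5, ddl-1, ddl-2 and hsb-1. The genes eak-3, eak-4, eak-6, sdf-9 and hsd-1 of the last list did not pass the filter.

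In the first of these lists DESeq2 called 1 of 13, lower: the class III PI3-kinase gene vps-34, at 71.4 ± 3.02 CPM with EV and 60.1 ± 2.31 CPM with RNAi (DESeq2 log2 fold change -0.24 ± 0.07 SE, adjusted p = 0.0104; edgeR adjusted p = 0.112). VPS-34 makes a different lipid from AGE-1 and serves autophagy and endosomes. Of all genes, DESeq2 called 6.99% lower. The phosphatase subunit gene pptr-1, known to direct PP2A to AKT-1, was at 173, 183 and 170.3 CPM with EV and 159.9, 153 and 159.6 CPM with RNAi. The groups did not overlap, and neither tool called it (log2 fold change -0.16 ± 0.04 SE, edgeR adjusted p = 0.112; DESeq2 adjusted p = 0.0584). The Shc adaptor gene shc-1 differed by -0.08 ± 0.09 SE (edgeR adjusted p = 0.617).

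Of the TOR genes, the TORC2 subunit gene rict-1, which acts upstream of sgk-1, was at 223, 203 and 219.7 CPM with EV and 239.7, 248 and 225 CPM with RNAi. It did not overlap and was not called (log2 fold change 0.14 ± 0.05 SE, edgeR adjusted p = 0.134; DESeq2 adjusted p = 0.111). The kinase gene let-363 (-0.02 ± 0.04), the TORC1 subunit gene daf-15 (0.003 ± 0.04) and the S6 kinase gene rsks-1 (-0.002 ± 0.03) were near 0. DESeq2 called 0 of 10 genes of this list, beside 6.08% higher and 6.99% lower over all genes. Of the 11 AMPK and LKB1 genes it called 1, lower, the regulatory subunit gene aakg-4 (14.5 ± 1.27 against 11.1 ± 0.878 CPM; DESeq2 log2 fold change -0.37 ± 0.13 SE, adjusted p = 0.0382). The catalytic subunit gene aak-2 (-0.05 ± 0.05) and its upstream kinase gene par-4 (0.14 ± 0.07) were not called.

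Of the proteins that hold or modify DAF-16, the phosphoserine-binding protein genes ftt-2 and par-5 had log2 fold changes of -0.15 ± 0.04 (edgeR adjusted p = 0.118) and -0.01 ± 0.03 (0.848). FTT-2 binds phosphorylated DAF-16 in the cytoplasm, and its transcript was at 362, 394 and 373 CPM with EV and 334, 333 and 355 CPM with RNAi, with no overlap. The gene eak-7, which acts beside akt-1, was at 126 ± 3.46 and 136 ± 1.51 CPM (0.11 ± 0.03, edgeR adjusted p = 0.118). The ubiquitin ligase gene rle-1 (0.11 ± 0.05) and the deubiquitinase gene math-33 (-0.08 ± 0.03), known to act in opposite directions on DAF-16 protein, and the cofactor gene smk-1 (-0.01 ± 0.04) were not called by either tool.

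The DESeq2 shares over all genes were 6.08% higher and 6.99% lower. Among the 22 cofactors and modifiers of DAF-16 with counts, DESeq2 called 0 higher and 4 lower. These included the heterochronic gene lin-14 at 35.6 ± 5.34 against 18.8 ± 6.43 CPM (DESeq2 log2 fold change -0.91 ± 0.19 SE, adjusted p = 0.000332; edgeR adjusted p = 0.118) and the acetyltransferase gene cbp-1 at 308 ± 12.1 against 265 ± 13.9 CPM (-0.21 ± 0.06, adjusted p = 0.0115). Of the 18 transcription factors that act beside DAF-16, DESeq2 called 2 lower, elt-6 (-0.63 ± 0.18, adjusted p = 0.00806) and the autophagy regulator hlh-30 (-0.37 ± 0.11, adjusted p = 0.00826). The stress regulator genes skn-1 (0.10 ± 0.05) and hsf-1 (0.12 ± 0.05) and pqm-1 (-0.04 ± 0.07), whose product is known to alternate with DAF-16 in the nucleus, were not called by either tool.

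**Figure D5:**
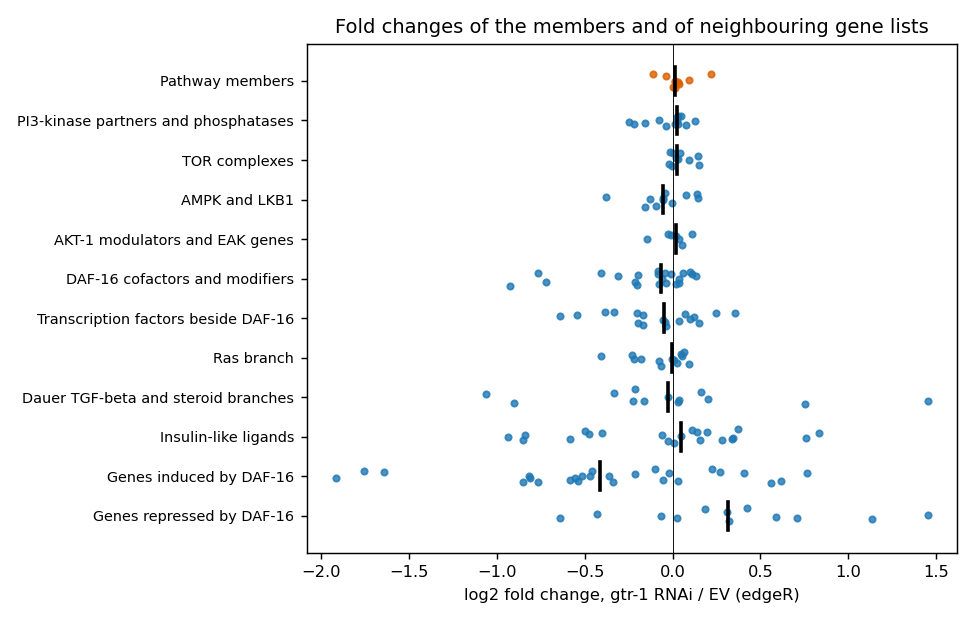
Log2 fold changes by edgeR of the 10 members (orange) and of the tested genes of 11 neighbouring lists (blue), 1 point a gene, with the median of each list as a black bar. The members lie between -0.11 and 0.22, while the lists of genes induced and repressed by DAF-16 spread from -1.91 to 0.76 and from -0.64 to 1.45, with medians of -0.41 and 0.32.

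In the parallel branches, beside the shares of 6.08% higher and 6.99% lower over all genes, DESeq2 called 1 of 13 Ras branch genes, the fibroblast growth factor receptor gene egl-15, lower (16.6, 20.0 and 17.4 CPM with EV against 13.2, 12.4 and 15.1 under RNAi; -0.40 ± 0.13 SE, adjusted p = 0.0201), while let-60, the Ras gene, had an edgeR log2 fold change of 0.03 ± 0.04. Of 13 genes of the dauer TGF-beta and steroid branches, it called 1 higher and 1 lower. The higher gene was daf-36, an oxygenase of dafachronic acid synthesis, at 1.95 ± 0.756 CPM with EV and 5.36 ± 1.44 CPM with RNAi (1.47 ± 0.32, adjusted p = 0.000421). The lower gene was din-1, a co-repressor of DAF-12 (-0.33 ± 0.08, adjusted p = 0.00263).

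Of the 39 insulin-like peptide genes with counts, 21 passed the filter, and DESeq2 called 1 lower, ins-34 (adjusted p = 0.0393); daf-28 (log2 fold change 0.35 ± 0.28) and ins-7 (0.76 ± 0.33) were not called. The ligands were variable transcripts, with a median SD of log2 CPM over the 6 libraries of 0.445 against 0.178 for all genes. Their median log2 fold change of 0.048 became -0.075 with RNAi replicate 1, -0.043 with EV replicate 3 and -0.017 with EV replicate 1 omitted. Over all genes, DESeq2 called 6.08% higher and 6.99% lower. Of 26 tested genes induced by DAF-16, DESeq2 called 8 lower, with lea-1 (-0.46 ± 0.09, adjusted p = 4.11e-05) and nnt-1 (-0.76 ± 0.16, adjusted p = 0.000273) leading, and 1 higher, mtl-2 (0.57 ± 0.18, adjusted p = 0.0202), whose groups overlapped. Within this list mtl-1 was at 81.6 ± 20.2 against 46.4 ± 9.01 CPM (-0.81 ± 0.26, DESeq2 adjusted p = 0.0205) and sod-3 had 0.42 ± 0.25 (adjusted p = 0.277). Of 12 tested genes repressed by DAF-16, it called 4 higher, such as dct-18 (0.72 ± 0.16, adjusted p = 0.000683) and dod-17 (1.47 ± 0.37, adjusted p = 0.00280), and 1 lower, acs-17 (-0.42 ± 0.11, adjusted p = 0.00280). The induced and repressed lists were also variable, with a median SD over the 6 libraries of 0.374 and 0.356 against 0.178 for all genes. By edgeR none of these genes passed. The part of the epidermal and germline markers in these differences was not tested.

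Many of these DESeq2 calls were lost when a library was omitted, as were calls over the whole table. There DESeq2 called 827 genes higher and 951 lower with 6 libraries, and 1555 and 1999 without RNAi replicate 3. With any other library omitted it called 99 to 763 higher and 48 to 671 lower. Of the 6 fits that each omitted a library, lea-1 and nnt-1 were called in 6, lin-14, daf-36 and dct-18 in 5 and din-1 in 4. The genes vps-34, cbp-1, mtl-1, dod-17 and acs-17 were called in 3, aakg-4, elt-6, hlh-30 and egl-15 in 2, and ins-34 and mtl-2 in 1. With RNAi replicate 3 omitted, the edgeR log2 fold change of ins-34 went from -0.84 to -1.29 and that of ins-7 from 0.76 to 0.48. The median of the genes induced by DAF-16 went from -0.41 to -0.57, and that of the repressed genes stayed at 0.32. Over the 6 edgeR fits that each omitted a library, the induced median was weakest, at -0.29, without RNAi replicate 1. The repressed median ran from 0.147 without EV replicate 3 to 0.403 without EV replicate 1.

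Across the 6 libraries, the transcripts whose log2 CPM followed daf-2 most closely among 10645 genes were sulp-7 (Pearson r = 0.982), T08D2.7 (0.964) and hgap-1 (0.954), and 31 genes had an r over 0.9. For daf-16 they were cpz-1 (r = 0.999), T25G12.6 (0.998) and T26A5.8 (0.9965), with 987 genes over 0.9. These values describe 6 points that share the library labels and the order of libraries on the first component, and no test was made of them.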

How the data were processed

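Per the labels' protocols, mRNA of whole worms was sequenced from a stranded library kit. The deposited counts are whole numbers per gene made by the authors. The submitters' processing notes name STAR, HTSeq and WBcel235; no versions or strand setting were given in the sources used. The table's 6 columns of normalized values were not used, and the RNAi count columns, headed GTOL and a number where the titles read GTR1 and a number, were matched by the letters GT and the replicate number; what OL stands for is not stated. The design text mentions 3 sets of worms without saying that they were independent cultures, so p-values cover library-to-library spread, which could be technical in part.

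Genes kept by filterByExpr (14683) were scaled with TMM factors and tested with edgeR 4.0.16 in R 4.3.3 (quasi-likelihood, robust, no covariate), Benjamini-Hochberg adjusted, threshold 0.05. SE is the log2 fold change over the root of F, and intervals are 95%. DESeq2 1.42.0 and limma 3.58.1 were alternatives. CPM are TMM-adjusted; log2 CPM used a prior count of 2. Exon lengths, coordinates and overlaps come from Ensembl release 115 (WBcel235), which holds all 22407 gene identifiers. The members and gene lists were chosen with earlier results of these data known. Named were all members, a set list of neighbours, and per list and direction up to 2 genes called by DESeq2, since edgeR called none, and, for daf-2 and daf-16, the 3 genes of highest r among those with a mean log2 CPM over 1.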

Additional observations from a re-analysis of the deposited data

How the results depend on the processing

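The edgeR count of members called, 0 higher and 0 lower, did not move with DESeq2 size factors, library size, no filter, a minimum of 10 counts in 3 libraries, a threshold of 0.1, leaving out the 10 most abundant genes, limma-voom, or the replicate block in edgeR. It was 1 higher, daf-18, with DESeq2, with limma-voom with sample quality weights and with DESeq2 with the replicate block, and 0 to 1 with a library left out. Over the whole table, edgeR called 0 genes in each direction, with a smallest adjusted p of 0.112. DESeq2 called 827 higher and 951 lower, and limma-voom with sample quality weights 1368 and 2152. With a library left out, counts ran from 0 to 1555 higher and 0 to 2236 lower over both tools; with RNAi replicate 3 omitted, edgeR called 1308 and 2236 and DESeq2 1555 and 1999; with any other library omitted, edgeR called 0 and DESeq2 99 to 763 and 48 to 671. A group left with 2 libraries shares its estimate of spread with the other. For genes of the pathway lists, DESeq2 called 6 and 20 and quality weights 12 and 41, and with a library left out 0 to 19 were higher and 0 to 39 lower.

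Directions of members with small changes turned in some settings. With library size alone, log2 fold changes were -0.043 for daf-2, -0.057 for age-1, -0.022 for pdk-1, -0.029 for akt-1, -0.043 for sgk-1 and -0.044 for hcf-1, while the median of all genes moved from -0.003 to -0.060. For age-1 it was -0.011 with quality weights and -5.9e-05 without the 10 most abundant genes. With a library left out, edgeR and DESeq2 values ran from -0.006 to 0.059 for daf-2, -0.033 to 0.049 for age-1, -0.014 to 0.078 for akt-1, -0.070 to 0.001 for akt-2, -0.107 to 0.110 for sgk-1, -0.174 to 0.019 for ist-1 and -0.008 to 0.052 for hcf-1. Set against the germline markers, daf-16 was at -0.001; this was added after the data had been seen. No cause of any of these changes was tested. The span of levels was 130.2-fold per exon length, 135-fold per coding length and 129.8-fold with library size.

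Replicate numbers come from the titles, and nothing says that they pair libraries. Deviations of same-numbered libraries had correlations of 0.24, -0.107 and 0.197 for numbers 1, 2 and 3. Those of differently numbered libraries ran from -0.326 to 0.205. With 3 libraries a group these values cannot decide whether the numbers mark pairs. The numbers were not taken as pairs because no label says that they are. With the replicate block, edgeR called 467 higher and 492 lower genes, 0 of them members, and 7 and 10 list genes; DESeq2 with the replicate block called 737 and 936 genes, and 9 and 21 list genes.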
